A study of Mus musculus with 15 samples.

Results

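Myelin and mature oligodendrocyte genes were followed in mouse brain tumours of 2 models. The set holds 9 genes chosen by symbol: Mbp, Mog, Mag, Mobp, Cnp, Opalin, Cldn11, Ugt8a and Myrf. All 9 were found among the 24421 genes of each deposited table, and all 9 passed the minimum level in every comparison. The 15 RNA-seq libraries form 5 groups of 3: HGG control, HGG Sox9-LOF, HGG Sox9-GOF, EPN control and EPN Sox9-GOF. HGG is short for high-grade glioma, an aggressive tumour of glia. EPN is short for ependymoma, which resembles the lining of the ventricles. LOF and GOF stand for loss and gain of function of Sox9, a transcription factor of glial development. The labels give brain tumour tissue as the source of every library and name the genotypes only in these words, with no strain or age and without saying how a model or a change of Sox9 was made. They also do not say that the replicates were separate animals, and p-values therefore measure only the spread between these samples.

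Oligodendrocytes wrap axons in myelin, a stack of compacted membrane rich in galactolipids and held together by a few abundant proteins. Their precursors first leave the cell cycle and become premyelinating cells, and they then switch on myelin genes together under SOX10 and MYRF, a membrane-bound transcription factor whose cleaved part enters the nucleus. In normal brain these transcripts mark oligodendrocytes and the white matter. In bulk tumour RNA, fewer oligodendrocytes and less myelin RNA per cell cannot be told apart.

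Depth ranged from 4665428 to 14119140 reads in genes per library (median 10578708), with HGG control 2 the shallowest. Sox9 itself was at 220 to 313 rescaled counts in the HGG controls, 398 to 745 in the libraries labelled Sox9-LOF and 1286 to 1550 in HGG Sox9-GOF. In EPN it was at 1049 to 1199 in the controls and 1849 to 2715 in Sox9-GOF. Its transcript was thus higher, not lower, in all 3 libraries labelled Sox9-LOF than in all 3 controls (log2 difference 1.03, SE 0.29, limma adjusted p = 0.184), and those libraries are named by their label throughout. The deleted or altered part of the gene is not given, so the transcript level may not check that label. Markers of ependyma and cilia summed to 14.5 to 183 rescaled counts over 4 genes in the EPN libraries and 110 to 416 in the HGG libraries. A rescaled count is a read count after all 15 libraries were put on 1 scale.

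Several libraries stood apart for the myelin genes. HGG control 1 combined high Cnp, Opalin, Cldn11 and Myrf with very low Mobp. HGG control 2 held the highest Mbp, Mog, Mag and Cnp of all 15 libraries. EPN Sox9-GOF 1 and 3 were far below EPN Sox9-GOF 2 for Mbp, Mog, Mobp and Opalin. Values without these libraries stand beside the medians and the differences that they move most.

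Promoter sequence is shown for 4 members, because Mobp and Cnp parted in HGG control 1 while Mog and Opalin were both at their lowest in EPN Sox9-GOF 3. Mbp, Mobp, Cnp and Ugt8a were also at their lowest in EPN Sox9-GOF 3, so that library does not set Mog and Opalin apart. All windows run from 250 to 51 bases before the RefSeq start, 5′ to 3′ on the strand of the gene, in GRCm38.p6. Capitals mark matches on either strand to CTGGNAC, a loose form of the MYRF motif, or to ACAAAG, a core that SOX proteins bind. The Mobp window lies at chr9:120149492-120149691 on the plus strand, the Cnp window at chr11:100574689-100574888 on the plus strand, the Mog window at chr17:37023449-37023648 on the minus strand and the Opalin window at chr19:41077164-41077363 on the minus strand.
Mobp: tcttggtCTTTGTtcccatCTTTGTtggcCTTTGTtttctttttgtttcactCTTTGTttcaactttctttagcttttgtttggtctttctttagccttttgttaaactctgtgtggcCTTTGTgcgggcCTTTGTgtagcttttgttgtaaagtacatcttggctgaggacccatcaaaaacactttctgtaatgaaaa
Cnp: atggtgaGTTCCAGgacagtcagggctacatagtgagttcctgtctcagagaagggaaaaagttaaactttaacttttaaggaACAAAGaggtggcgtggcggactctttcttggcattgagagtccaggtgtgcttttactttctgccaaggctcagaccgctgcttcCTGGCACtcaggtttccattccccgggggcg
Mog: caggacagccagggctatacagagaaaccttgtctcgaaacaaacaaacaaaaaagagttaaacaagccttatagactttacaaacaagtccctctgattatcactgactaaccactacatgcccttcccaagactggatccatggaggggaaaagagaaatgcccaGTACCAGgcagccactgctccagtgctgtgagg
Opalin: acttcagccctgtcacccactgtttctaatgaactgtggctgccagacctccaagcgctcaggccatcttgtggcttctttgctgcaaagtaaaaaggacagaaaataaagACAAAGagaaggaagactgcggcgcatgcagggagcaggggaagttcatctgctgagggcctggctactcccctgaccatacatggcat

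The Mobp window held 6 matches to the SOX core, at 243, 231, 221, 198, 132 and 120 bases before the start, and 0 to the MYRF motif. The Cnp window held 2 matches to the MYRF motif, at 243 and 81 bases, and 1 to the SOX core, at 167 bases. Mog had 1 match to the MYRF motif, at 83 bases, and Opalin 1 to the SOX core, at 139 bases. Among 32851 RefSeq windows of the same 200 bases, 13.2% held the MYRF motif and 13.6% the SOX core. A count of 5 or more SOX matches, a limit chosen after the Mobp window had been seen, occurred in 2 of these windows. The Mobp window is itself 1 of the 2. Of the windows not shown, that of the first of 3 Mag starts held 2 matches to the MYRF motif and 1 to the SOX core. The window of the second Mag start, which overlaps the first, held 1 of each. Those of the third Mag start, Cldn11 and Ugt8a held neither. These matches describe letters only and are not evidence of binding.

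Mbp encodes myelin basic protein, which glues the cytoplasmic faces of the membrane together. The gene lies on chromosome 18 (82475146 to 82585637, plus strand, GRCm38), and counts per gene cannot separate its isoforms, among them the golli transcripts, which are also made outside oligodendrocytes. Mbp was at 19006, 66260 and 19653 rescaled counts in HGG controls 1, 2 and 3, at 21045, 20599 and 55625 in the libraries labelled Sox9-LOF, and at 5137, 16112 and 32768 in HGG Sox9-GOF. It was at 21751, 9529 and 16580 in the EPN controls and at 3483, 15652 and 882 in EPN Sox9-GOF. HGG control 2 and the third library labelled Sox9-LOF stood well above the rest of their groups, and the ranges of all 5 groups overlapped along the order of their means (34973 ± 27098, 32423 ± 20095, 18005 ± 13912, 15953 ± 6135 and 6672 ± 7885, SD, n = 3). Mbp alone took 0.00831% to 0.687% of all reads, and the 9 genes together 0.113% to 1.00%. In EPN Sox9-GOF 3 Mbp made up 6.93% of the reads of the 9 genes, against 29.9% to 70.2% in the other 14 libraries.

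Mobp encodes a small basic protein of compact myelin (chromosome 9, 120149707 to 120181484, plus strand). It was at 88.0, 3107 and 1299 rescaled counts in HGG controls 1, 2 and 3, at 2347, 2160 and 5263 in the libraries labelled Sox9-LOF and at 624, 1325 and 2231 in HGG Sox9-GOF. The EPN controls held 1883, 754 and 1646, and EPN Sox9-GOF held 388, 1565 and 53.3. HGG control 1 was 1 of 2 libraries below 100, although its Cnp, at 10916, was the second highest of all. The ratio of Cnp to Mobp was 124 in HGG control 1 and 1.29 to 4.21 in the other HGG libraries. Of 30 other mature oligodendrocyte genes, 14 had their lowest HGG value in HGG control 1 and 2, Jam3 and Tmem88b, their highest. The share of all genes with their lowest value there is not given, so this count is a description only. Mal, a lipid-raft protein of compact myelin, and Ermn, a cytoskeletal protein of late oligodendrocytes, were among the 14, at 101 and 20.8 rescaled counts in HGG control 1 against 344 to 4875 and 235 to 1346 in the other 8 HGG libraries. Bcas1, a marker of premyelinating cells, was at 12242 there, against 1605 to 9620 in the other HGG libraries. Bcas1 is 1 of 11 listed genes of committed and premyelinating cells, which did not all share this. Gpr17 of that list had its highest HGG value, 10416, in HGG Sox9-GOF. Itpr2 was at 511 to 720 in the HGG controls and 846 to 3163 in the libraries labelled Sox9-LOF. No count over that list was made. Jam3, Tmem88b, Mal, Ermn, Bcas1, Gpr17 and Itpr2 were named after their values were seen.

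Mog encodes a surface protein of the outermost lamella (chromosome 17, 37010743 to 37023398, minus strand), and Mag an adhesion molecule of the inner, axon-facing membrane (chromosome 7, 30899176 to 30914873, minus strand). Mog was at 356, 1656 and 703 rescaled counts in the HGG controls, at 792, 370 and 1126 in the libraries labelled Sox9-LOF and at 266, 365 and 799 in HGG Sox9-GOF. The EPN values were 321, 211 and 309 in the controls and 49.4, 236 and 22.3 in Sox9-GOF. Every EPN library was below every HGG control, and the 2 lowest values belonged to EPN Sox9-GOF 1 and 3.

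Mag was at 2679, 5998 and 2238 rescaled counts in the HGG controls, at 2024, 1627 and 3093 in the libraries labelled Sox9-LOF and at 779, 993 and 2282 in HGG Sox9-GOF. Its EPN levels were 1511, 702 and 1131 in the controls and 245, 905 and 406 in Sox9-GOF. Mag also lay lower in every EPN library than in every HGG control, but its lowest library was EPN Sox9-GOF 1, not 3. The ratio of Mag to Mog was accordingly 18.2 in EPN Sox9-GOF 3 and 2.56 to 7.52 in all other libraries.

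Cnp encodes a phosphodiesterase of the cytoplasmic channels of myelin and is already made by premyelinating cells (chromosome 11, 100574904 to 100591729, plus strand). It was at 10916, 13075 and 3609 rescaled counts in the HGG controls, at 4182, 2793 and 7789 in the libraries labelled Sox9-LOF and at 2582, 4235 and 7377 in HGG Sox9-GOF. The EPN controls held 2929, 2229 and 2543, and EPN Sox9-GOF held 1044, 2178 and 663. The EPN controls were close to each other (2567 ± 351, SD, n = 3), and the HGG controls were not (9200 ± 4961). Exons of Cnp overlap those of Dnajc7 on the opposite strand, and exons of Mobp those of Gm38642 on the same strand. The strand setting of the counting is not given, so some of these reads may belong to the neighbours.

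Opalin encodes a membrane glycoprotein typical of oligodendrocytes (chromosome 19, 41061710 to 41077113, minus strand). By group mean it was the least abundant member, and it was at 453, 283 and 125 rescaled counts in the HGG controls, at 141, 109 and 70.7 in the libraries labelled Sox9-LOF and at 73.8, 45.1 and 176 in HGG Sox9-GOF. EPN values were 76.7, 31.8 and 76.9 in the controls and 16.0, 66.0 and 3.87 in Sox9-GOF. The lowest of these values rests on 4 reads. HGG control 1 held the highest Opalin together with the second lowest Mobp.

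Cldn11 encodes the claudin of the tight junctions that seal myelin lamellae and is also expressed by arachnoid cells of the meninges (chromosome 3, 31149920 to 31164324, plus strand). It was at 6771, 3763 and 1212 rescaled counts in the HGG controls, at 2478, 3533 and 3088 in the libraries labelled Sox9-LOF and at 1041, 2528 and 2623 in HGG Sox9-GOF. In the EPN tumours Cldn11 was at 2130, 1279 and 4004 in the controls and at 1494, 1533 and 5352 in Sox9-GOF. Its highest EPN value came from EPN Sox9-GOF 3, where Mbp, Mog, Mobp, Cnp, Opalin and Ugt8a were at their lowest of all 15 libraries. The ratio of Cldn11 to Mbp was 6.07 in that library and 0.0555 to 0.429 in the other 14. Markers of leptomeningeal fibroblasts (6 genes) summed to 17115 to 30843 in the EPN libraries, 21046 of them in EPN Sox9-GOF 3, and to 1642 to 13108 in the HGG libraries, and their part in the Cldn11 level was not tested.

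Ugt8a encodes the galactosyltransferase that makes galactocerebroside, the main myelin galactolipid (chromosome 3, 125865271 to 125938619, minus strand). It was at 732, 1021 and 382 rescaled counts in the HGG controls, at 909, 593 and 2035 in the libraries labelled Sox9-LOF and at 801, 1136 and 772 in HGG Sox9-GOF. In EPN it was at 468, 283 and 579 in the controls and at 141, 160 and 77.5 in Sox9-GOF. The EPN Sox9-GOF libraries were the 3 lowest of all 15, and this held for EPN Sox9-GOF 2 as well, which lay within the range of its controls for Mbp, Mog, Mag, Mobp, Opalin and Cldn11.

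Myrf, the transcription factor needed for myelin gene expression, is also transcribed outside the nervous system (chromosome 19, 10208272 to 10240748, minus strand). It was at 2289, 1360 and 466 rescaled counts in the HGG controls, at 584, 701 and 1144 in the libraries labelled Sox9-LOF and at 240, 497 and 822 in HGG Sox9-GOF. The EPN libraries had 3993, 3289 and 3645 in the controls and 4789, 2673 and 5272 in Sox9-GOF. All 6 EPN libraries lay above all 9 HGG libraries, and Myrf varied only 1.97-fold within EPN while Mog varied 14.4-fold. The ratio of Myrf to Mog was 0.662 to 6.43 in HGG and 11.3 to 237 in EPN.

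**Figure D1:**
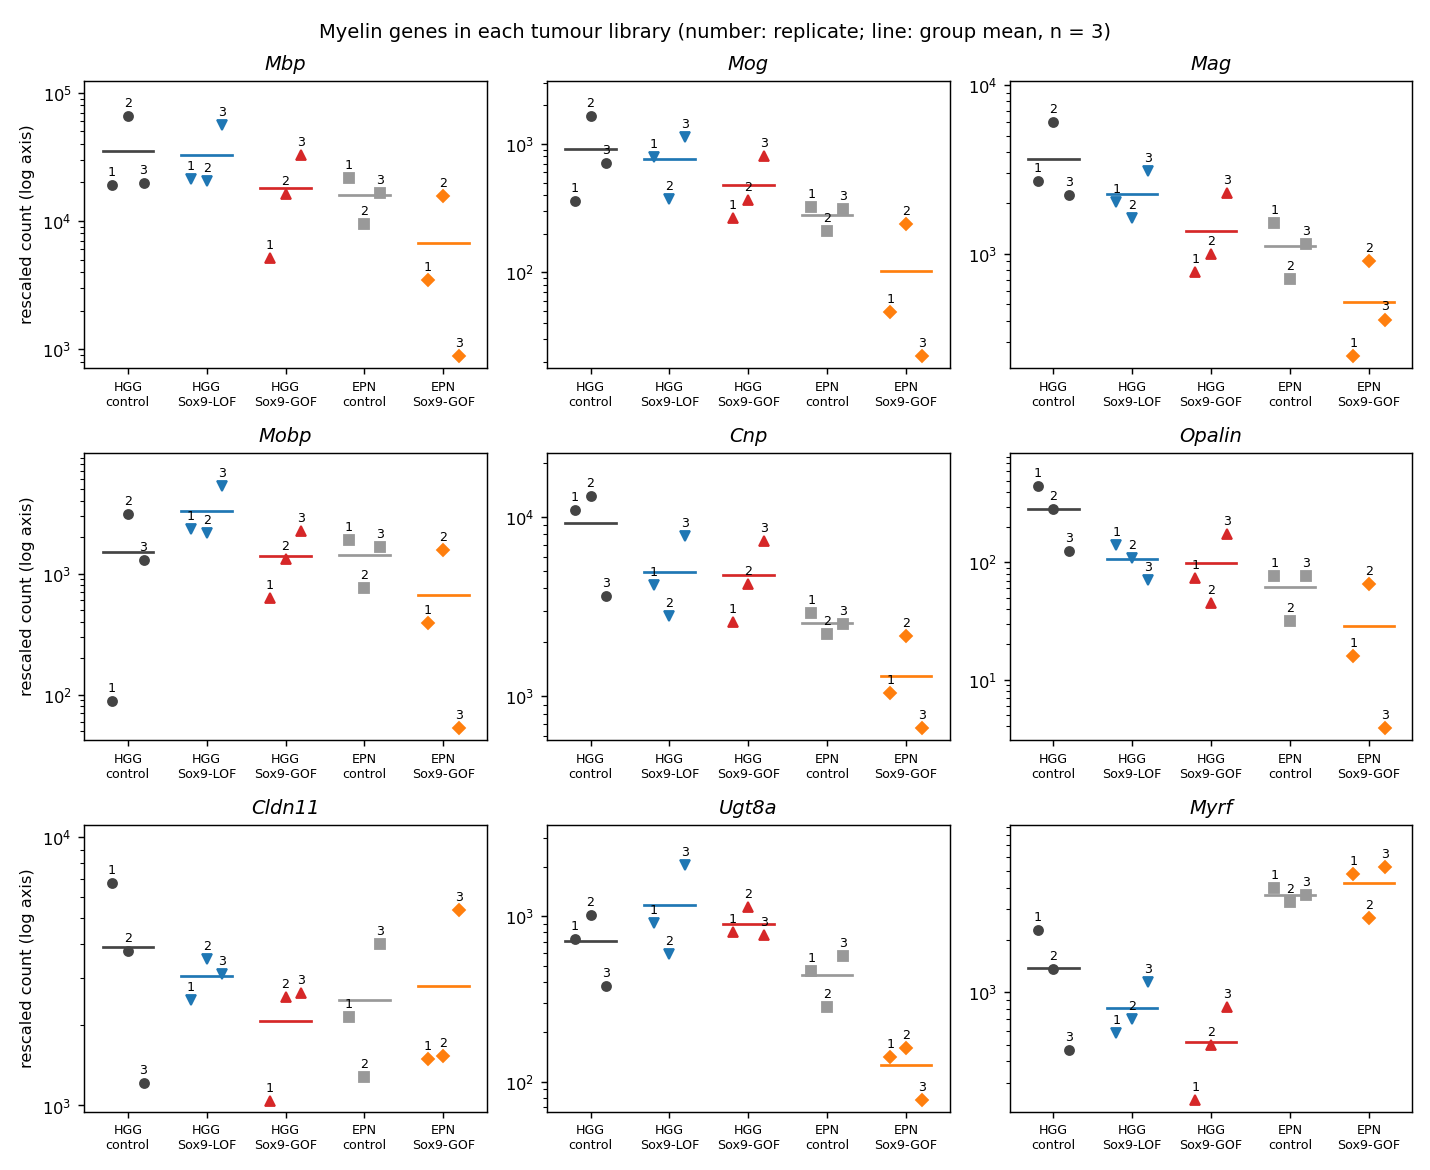
Rescaled count (log axis) of each of the 9 genes in each library, by group; numbers are replicates and lines are group means of 3. EPN Sox9-GOF 1 and 3 sit at the bottom for Mbp, Mog and Opalin, HGG control 1 is the lowest HGG library for Mobp at 88.0, and all EPN libraries are above all HGG libraries for Myrf.

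Per kilobase of exon, Mbp was the most abundant member in both control groups, at 4130 rescaled counts in HGG and 1884 in EPN. In the HGG controls Cnp (2528), Cldn11 (2094), Mag (893), Mog (531), Mobp (219), Myrf (160), Ugt8a (157) and Opalin (97.4) followed. In the EPN controls the order after Mbp was Cldn11 (1321), Cnp (705), Myrf (425), Mag (274), Mobp (208), Mog (165), Ugt8a (97.7) and Opalin (21.0). Myrf thus stood 7th of 9 in HGG and 4th of 9 in EPN on this scale, which divides a gene's level by the length of all its annotated exons together.

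In EPN, Mbp, Mog, Mobp, Cnp and Opalin ran closely together across libraries. Over the 6 EPN libraries, Pearson's r of log2 levels was 0.98 between Mbp and Mog, 0.99 between Mbp and Mobp, and 0.99 between Mbp and Opalin. Mag and Ugt8a followed with a median r of 0.79 and 0.83 with the other 8 members. Myrf ran the other way, with a median r of -0.74, and Cldn11 had a median r of -0.37. In the 9 HGG libraries Myrf had a median r of 0.71 with the other members, reaching 0.91 with Cldn11, and Mobp had the lowest median, 0.09. These coefficients describe libraries that share depth, scaling and group differences, and the HGG value of Mobp includes HGG control 1. The EPN values include EPN Sox9-GOF 1 and 3, where Mbp was at 3483 and 882 rescaled counts, against 9529 to 21751 in the other EPN libraries. Myrf was at 4789 and 5272 in EPN Sox9-GOF 1 and 3, against 2673 to 3993 in the others. No coefficient was computed without these libraries. Whether the coefficients differ between the models was not tested.

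**Figure D2:**
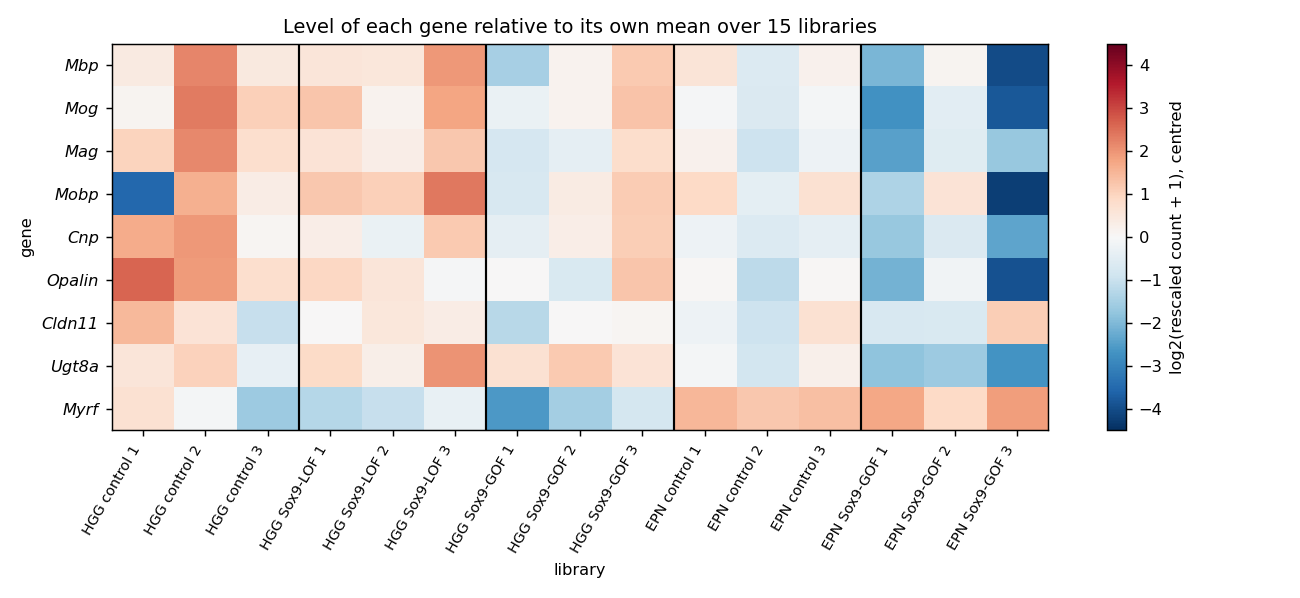
Centred log2(rescaled count + 1) of the 9 genes (rows) in 15 libraries (columns, grouped); colour gives the deviation from the gene's mean over all libraries, from -4.23 to 2.61. In EPN Sox9-GOF 3 Cldn11 and Myrf are above their means while the other 7 genes are below theirs, and in HGG control 1 Mobp alone is below.

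**Figure D3:**
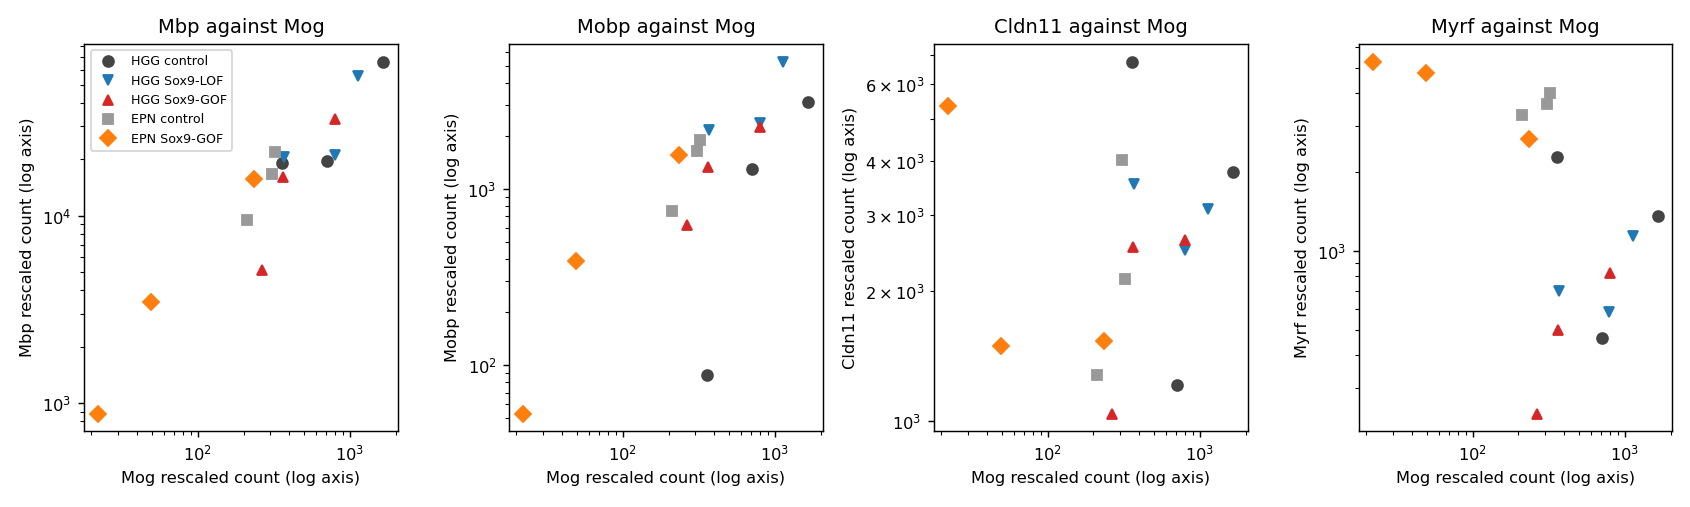
Rescaled count of Mbp, Mobp, Cldn11 and Myrf (y, log axis) against Mog (x, log axis) in 15 libraries, coloured by group. Mbp rises with Mog across both models, Mobp does so except in HGG control 1, and Myrf is high in all EPN libraries at any level of Mog.

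The comparison of HGG Sox9-LOF with HGG control asks how the label of lost Sox9 function relates to myelin genes in glioma. The members did not share a direction: 7 of 9 log2 differences were below 0, against 49.3% of the 14861 genes tested, and the median of the 9 was -0.12, against 0.01 over all genes. This median ran from -0.76 without HGG control 3 to 0.07 without HGG control 2, so that its sign rested on single libraries. The largest difference was that of Mobp, 2.06 (SE 1.25, limma adjusted p = 0.438), and it was 0.56 without HGG control 1. Opalin differed by -1.29 (SE 0.52, adjusted p = 0.276), Cnp by -0.84 (SE 0.59, adjusted p = 0.500) and Ugt8a by 0.64 (SE 0.54, adjusted p = 0.570). Differences are on the scale log2(value + 1), which understates the change of low genes. None of the 9 passed an adjusted p of 0.05 with limma, the main test, where 0% of all genes did. With edgeR, 0 members and 0% of all genes passed, and with DESeq2 0 members and 9.01% of all genes. At an unadjusted p under 0.05 limma gave 1 member, Opalin, and 17.3% of all genes. In 0 members did the libraries labelled Sox9-LOF all lie below the controls, against 11.7% of all genes. Without HGG control 2 the differences of Mbp and Mog turned positive, at 0.58 and 0.46.

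The comparison of HGG Sox9-GOF with HGG control, on the same 3 controls, asks the same of gained function. Again 7 of 9 members were lower, against 48.1% of the 15092 genes tested, with a median log2 difference of -0.87 against 0.03 over all genes. The median ran from -1.39 without HGG control 3 to -0.45 without HGG Sox9-GOF 1, and it was -0.51 without HGG control 2. The log2 difference was -1.56 for Opalin (SE 0.65, limma adjusted p = 0.221), -1.43 for Mag (SE 0.53, adjusted p = 0.181), -1.27 for Myrf (SE 0.68, adjusted p = 0.322) and -1.04 for Mbp (SE 0.83, adjusted p = 0.507). Mobp (0.81, SE 1.29) and Ugt8a (0.45, SE 0.39) had the only positive values, and that of Mobp became -0.69 without HGG control 1. No member and 0% of all genes passed the adjusted threshold with limma. The same held with edgeR, at 0 members and 0% of genes, and DESeq2 called 0 members and 15% of genes. At an unadjusted p under 0.05, limma gave 1 member, Mag, and 22.7% of all genes. Gain of function lay wholly below control in 0 members and in 15.2% of all genes. Same-numbered libraries of these groups correlated, but HGG control 3 ran more like HGG Sox9-GOF 1 than like HGG Sox9-GOF 3. By replicate number, Ugt8a was higher in all 3 pairs and Mobp in pairs 1 and 3. The other 7 members were lower in pairs 1 and 2 and higher in pair 3. Without HGG control 2 the difference was -0.44 for Mbp, -0.99 for Mag and -0.20 for Mog.

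Beside these values, the oligodendrocyte precursor markers summed to 4830 to 31612 rescaled counts over 8 genes in the HGG controls and to 12529 to 36166 in HGG Sox9-GOF. Schwann cell markers, whose cells also express Mbp, Mag and Cnp, summed to 2080 to 11094 over 8 genes in the HGG controls and to 1414 to 2940 in the other HGG groups. Neuron markers summed to 7598 in HGG control 1 and to 20241 to 57345 in the other HGG libraries, and astrocyte markers to 11117 and to 31932 to 120245. The part of these cell types in the myelin values was not tested.

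The comparison of EPN Sox9-GOF with EPN control gave the lowest median of the 3 within a model. The log2 difference was -2.04 for Mog (SE 0.77, limma adjusted p = 0.274), -2.01 for Mbp (SE 0.94, adjusted p = 0.371) and -2.0 for Mobp (SE 1.09, adjusted p = 0.455). Opalin differed by -1.67 (SE 0.92), Mag by -1.20 (SE 0.49) and Cnp by -1.11 (SE 0.40), while Cldn11 (0.10, SE 0.59) and Myrf (0.21, SE 0.27) were near 0. In all, 7 of 9 members were below 0, against 45.0% of 14591 genes, and the median was -1.67 against 0.04 over all genes. Without EPN Sox9-GOF 3 the median became -0.74, with Mbp at -0.98, Mobp at -0.72, Opalin at -0.74, Mog at -1.29, Cnp at -0.71 and Cldn11 at -0.50. Without EPN Sox9-GOF 1 it was -1.65, with Mag at -0.77.

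Ugt8a was the member with the smallest p in this comparison (log2 difference -1.76, SE 0.37, limma adjusted p = 0.148). It was also the only one of the 9 whose EPN Sox9-GOF libraries all lay below all EPN controls on the scale of the table, against 12.5% of all genes. For Cnp the groups overlapped on that scale and were apart by a small margin on the joint scale, at 2178 against 2229. Limma called 0 members and 0% of genes and edgeR 0 members and 0% of genes, while DESeq2 called Ugt8a (adjusted p = 0.000959) and 5.77% of genes. At an unadjusted p under 0.05 limma gave 4 members, Cnp, Mag, Mog and Ugt8a, and 15.1% of all genes. Beside these values, neuron markers summed to 7843 to 16586 in the EPN controls and to 2296 to 4312 in EPN Sox9-GOF. Astrocyte markers summed to 38007 to 45456 and to 8125 to 29928, and precursor markers to 4411 to 6162 and to 2255 to 2553. The part of other brain cells in the myelin values was not tested.

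**Figure D4:**
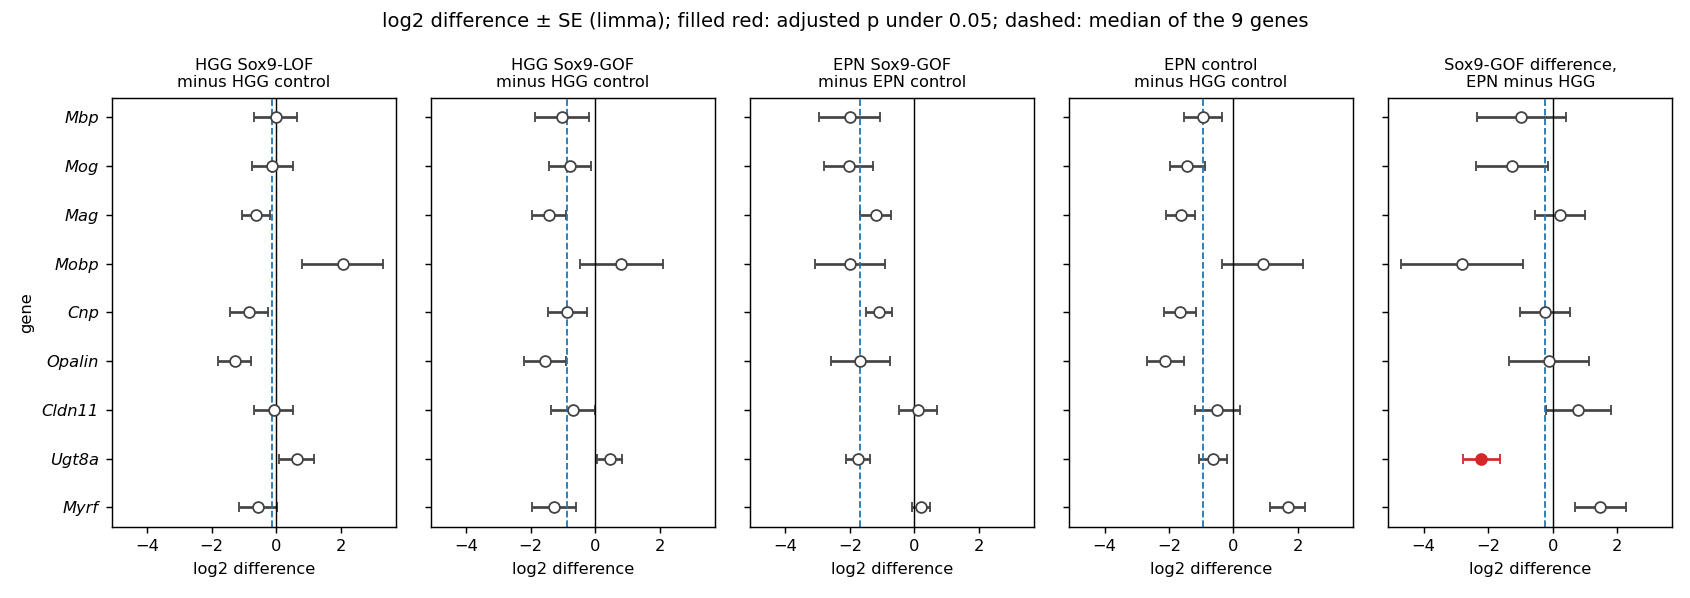
log2 difference ± SE of each of the 9 genes in 5 comparisons (limma), with the median of the 9 dashed. Only Ugt8a in the difference between the models is filled, as past an adjusted p of 0.05; its value is -2.22.

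**Figure D5:**
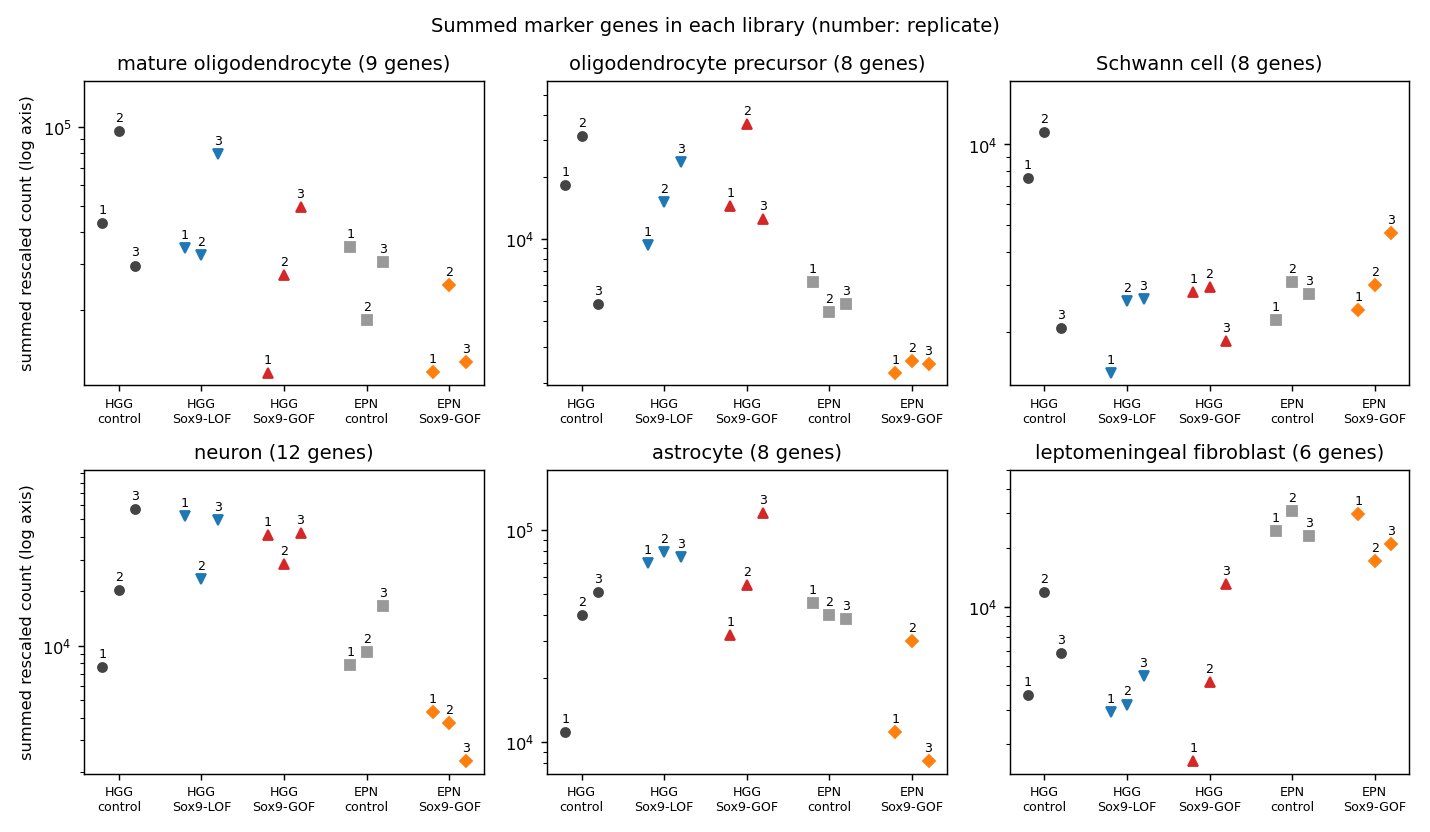
Summed rescaled counts (log axis) of the markers of 6 cell types in each library, by group, with replicate numbers. The sums of neuron and precursor markers are lower in all 3 EPN Sox9-GOF libraries than in all 3 EPN controls, and HGG control 1 has the lowest neuron sum of HGG, 7598.

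The control tumours of both models were compared on the joint scale. Most myelin transcripts were at lower levels in the EPN controls. The log2 difference was -2.12 for Opalin (SE 0.58, limma adjusted p = 0.0546), -1.65 for Cnp (SE 0.49, adjusted p = 0.0678), -1.63 for Mag (SE 0.45, adjusted p = 0.0555) and -1.43 for Mog (SE 0.55, adjusted p = 0.124). For Myrf it was 1.68, with higher levels in EPN (SE 0.55, adjusted p = 0.0878). Mbp (-0.95, SE 0.59), Ugt8a (-0.63, SE 0.43) and Cldn11 (-0.50, SE 0.70) differed less, and Mobp gave 0.90 (SE 1.26) with HGG control 1 and -0.60 without it. The median of the 9 was -0.95 (-1.26 without HGG control 1, -0.37 without HGG control 2 and -0.62 without EPN control 2) against 0.00 over 15117 genes, and 7 of 9 were below 0 against 49.9% of genes.

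None of these values passed limma's adjusted threshold, although 15.3% of all genes did. The 4 members Mog, Mag, Cnp and Opalin were lower in all EPN controls than in all HGG controls, against 18.4% of genes, and Myrf was higher in all, against 21.9%. At an unadjusted p under 0.05 there were 5 members, the same 4 and Myrf, and 33.3% of genes. The call depended on the test: edgeR called 2 members, Cnp and Opalin (14.9% of genes), DESeq2 called 5, Mog, Mag, Cnp, Opalin and Myrf (29.0% of genes), and limma with the spread of all 15 libraries called 3, Mag, Cnp and Myrf (27.9% of genes). Limma called 2 members, Mog and Myrf, without HGG control 1, where it called 3632 genes in all, and 2, Cnp and Opalin, without HGG control 3, where it called 1909. Beside these values, precursor markers summed to 4830 to 31612 rescaled counts in the HGG controls and 4411 to 6162 in the EPN controls, and Schwann cell markers to 2080 to 11094 and 2231 to 3085. Endothelial markers (4 genes) summed to 444 to 1121 and 2046 to 2939, and their part in the myelin values was not tested.

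A contrast of the 4 group means asked whether the difference between Sox9-GOF and control differed between EPN and HGG. Ugt8a was the only member called: its difference was -1.76 in EPN and 0.45 in HGG, and the contrast was -2.22 (SE 0.58, limma adjusted p = 0.0486), where 6.07% of 15145 genes were called. This call sat at the threshold. The HGG value on which it rests turned to -0.35 with the GC and length correction. The call was kept by DESeq2 (adjusted p = 0.00509, with 16.3% of genes called) and lost by edgeR (0.0509, with 5.37% of genes called). It was also lost once GC content and length were corrected for (-1.48, limma adjusted p = 0.209), where 69 genes were called in all. The exons of Ugt8a have a GC content of 38.0%, the lowest of the 9. Leaving out 1 library kept the call in 2 of 12 cases, without HGG control 2 or without HGG control 3. With the replicate number as a block it was also lost, at an adjusted p of 0.0688.

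Mobp gave the largest contrast, -2.81 (SE 1.89, adjusted p = 0.368), and Myrf 1.48 (SE 0.79, adjusted p = 0.256). For 6 of 9 members the contrast was below 0, against 51.3% of genes, and the median was -0.24 against -0.03. That median ran from -1.07 without EPN Sox9-GOF 2 to 0.34 without HGG control 3, and it was also above 0 without HGG Sox9-GOF 3 (0.14) or EPN Sox9-GOF 3 (0.16). At an unadjusted p under 0.05 there was 1 member, Ugt8a, and 27.1% of genes.

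Other genes of the oligodendrocyte programme were taken from 5 lists: 8 myelin lipid enzymes, 30 other mature oligodendrocyte genes, 11 genes of committed and premyelinating cells, 9 transcription factors of the lineage and 11 brakes on differentiation. In the 3 comparisons within a model, 0 of these 69 genes passed limma's threshold in either direction. At an unadjusted p under 0.05 limma gave 5, 6 and 24 in the order LOF label, HGG gain and EPN gain of function, against 17.3%, 22.7% and 15.1% of all genes. For the same comparisons edgeR called 0 in each and DESeq2 called 3, 4 and 8, against 9.01%, 15% and 5.77% of all genes. The ones with the smallest p were Nkx6-2, a homeobox factor of mature oligodendrocytes (-2.01, SE 0.53), and Il33, a nuclear alarmin (2.01, SE 0.54), in the first of these comparisons. In HGG Sox9-GOF they were Elovl1, an elongase of very long fatty acids (-1.01, SE 0.24), and Nkx6-2 (-2.15, SE 0.63). In EPN Sox9-GOF they were Ptprz1, a receptor phosphatase of precursors (-1.81, SE 0.32), and Lingo1, an inhibitor of myelination (-2.50, SE 0.47). In EPN Sox9-GOF the genes wholly below control were 7 of 11 premyelinating genes, 4 of 9 lineage factors, 3 of 8 lipid enzymes, 3 of 11 brakes and 4 of 29 other mature genes, against 12.5% of all genes. Neuron markers were wholly lower in 12 of 12 cases and precursor markers in 6 of 8.

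Between the control tumours, limma called 11 of the 69 genes of the 5 lists, a share near the 15.3% of all genes called. Among the lineage factors, 3 were lower in EPN: Olig1 (-3.05, SE 0.38, adjusted p = 0.00665) and Olig2 (-3.16, SE 0.41, adjusted p = 0.00765), which specify the oligodendrocyte lineage, and Sox8. Also lower were the premyelinating factor Nkx2-2, the brakes Ptprz1 (-1.90, SE 0.27, adjusted p = 0.00900) and Hes5, and 3 further genes: Gal3st1, which sulfates galactocerebroside, Fa2h, which hydroxylates its fatty acid, and the myelin protein gene Pllp. Trf, which encodes the iron carrier transferrin, was higher in EPN (1.91, SE 0.26, adjusted p = 0.00800), as was Anln. The median log2 difference was -1.61 for the 9 lineage factors, -1.07 for the 11 premyelinating genes, -0.58 for the 30 other mature genes, -0.41 for the 11 brakes and 0.30 for the 8 lipid enzymes, against 0.00 over all genes. Sox8, Nkx2-2, Hes5, Gal3st1, Fa2h, Pllp and Anln were named after their values were seen.

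In the contrast between the models 2 of the 69 listed genes were called, against 6.07% of all genes. They were Ptprz1 (-2.90, SE 0.52, adjusted p = 0.0197) and Elovl1 (1.04, SE 0.27, adjusted p = 0.0491). Ptprz1 was at 5774, 6517 and 3527 rescaled counts in HGG control libraries 1, 2 and 3 and at 14911, 11752 and 6964 in HGG Sox9-GOF. In EPN it was at 1308, 1557 and 1250 in the controls and at 394, 580 and 233 in Sox9-GOF. All 3 Sox9-GOF libraries lay above the controls in HGG and below them in EPN.

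The genes whose levels ran most like the mean of the 9 members over the 15 libraries were, after the first in rank, Prodh (Pearson's r = 0.95), Nkain4 (0.94), Tmem88b (0.94), Prob1 (0.93), Car14 (0.93), Nnat (0.92) and Fst (0.91). Prodh encodes proline dehydrogenase, and Tmem88b is one of the listed mature oligodendrocyte genes. All 7 had their lowest value in EPN Sox9-GOF 3, as did 6 of the 9 members. Prodh ran from 13.6 to 256 rescaled counts, with its highest value in HGG control 2, and Nkain4 from 10.7 to 887, also highest there. These libraries share depth, scaling and group, and the coefficients are a description of 15 points.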

How the data were processed

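Polyadenylated RNA from frozen tumour tissue was sequenced after TruSeq Stranded mRNA preparation from 300 ng of total RNA, per the labels' protocols. The submitters' processing notes name FastQC 0.11.7, MultiQC 1.11, STAR 2.5.0a, DESeq2 1.30.1 and mm10, and the sources used here do not give the counting tool, strand setting or annotation. The authors deposited 3 tables of 6 libraries each, with the HGG controls in 2 of them. The deposited signal values are counts divided by a size factor per library: dividing by the value of 1 read gave whole reads, within 0.001 of a read, for 100% of values in every library. The 6 unnamed columns were empty.

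The members and lists were chosen with earlier results of these data known. Members are described first, and of other listed genes the text names the ones with the smallest p in each comparison, while any other is said to have been named after its values were seen. The gene whose pattern was most like the members is not reported here. limma 3.58.1 (R 4.3.3) was fitted to log2(value + 1) of genes whose mean reached 10, using a trend and Benjamini-Hochberg adjustment at 0.05. Comparisons within a model, and the contrast between the models, used each library's values on the scale of its own table. The comparison of the control tumours, and all levels printed, used the recovered reads rescaled jointly over 15 libraries. Genes were matched by symbol to GENCODE M21 (23350 of 24421). Recovered reads were also tested with edgeR 4.0.16 and DESeq2 1.42.0. The fits were run on simulated counts with known changes and the same spread setting for every gene. That simulation does not copy the spread between these samples, so it does not show how the fits behave on them. The 3 against 3 design cannot give an exact two-sided permutation p below 0.1. Same-numbered libraries of HGG Sox9-GOF and HGG control correlated in their deviations from the group means (0.178, 0.443 and 0.224, all over 0.1). HGG control 3, however, correlated best with HGG Sox9-GOF 1, so pairing by number is uncertain there. This pairing comes from the data, since the labels give only the number.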

Additional observations from a re-analysis of the deposited data

Results flagged for a closer look

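Ugt8a, Ptprz1 and Elovl1 were called in the test of whether the difference between Sox9-GOF and control differed between the models. That test was limma on 4 group means, adjusted over 15145 genes. The calls are 1 of the 9 members and 2 of the 69 listed genes, against 6.07% of all genes, a share that was not stable. Ugt8a, the galactocerebroside synthase, had a difference of -2.22 (adjusted p = 0.0486), with all 3 EPN Sox9-GOF libraries below their controls and the HGG groups overlapping. It was called in 4 of 9 alternative settings and in 2 of 12 fits without 1 library. The settings that lost Ugt8a were no filter, edgeR, the GC and length correction, the replicate block and both of these together. Ptprz1, the receptor phosphatase of precursors, had a difference of -2.90 (adjusted p = 0.0197) and was called in 7 of 9 alternative settings and in 10 of 12 fits without 1 library. The settings that lost Ptprz1 were the GC and length correction without the replicate block (limma adjusted p = 0.0952) and with it (0.1001). Elovl1, the fatty acid elongase, had a difference of 1.04 (adjusted p = 0.0491) and was called in 4 of 9 alternative settings and in 1 of 12 fits without 1 library. It was lost with no filter, with TMM scaling and with the replicate block. The GC and length correction also lost it, without the block (0.70, limma adjusted p = 0.191) and with it.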

How the results depend on the processing

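The counts of members called differed from the main values (0, 0, 0, 0 and 1) as follows. For EPN Sox9-GOF against control DESeq2 called 1. For EPN control against HGG control edgeR called 2, DESeq2 5 and limma with the spread of all 15 libraries 3. For the contrast between models 0 were called with no filter, with edgeR, with the GC and length correction, with the replicate block and with both. Fits without 1 library called 0 to 2 members between the control tumours, 0 to 1 in the contrast and 0 in the other comparisons. Signs turned in 16 of 405 single-gene values under other settings: Cldn11 for the libraries labelled Sox9-LOF gave 0.0648 after the GC and length correction, with or without the block, and Ugt8a for HGG Sox9-GOF gave -0.35. Mobp gave -0.0938 with edgeR and -0.101 with DESeq2 for HGG Sox9-GOF, and -0.0781 and -0.0759 between the control tumours. In the contrast Opalin gave 0.27 with a pseudocount of 8, 0.48 with edgeR, 0.44 with DESeq2 and 0.0224 after the GC and length correction, Cnp 0.00835 with edgeR and Mag -0.40 after that correction. TMM scaling turned 0 of 45.

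Without 1 library, signs turned in 26 single-gene values and in the median of the 9 for the label Sox9-LOF and for the contrast. The ranges were -0.76 to 0.48 for Cldn11, -0.48 to 0.58 for Mbp and -0.66 to 0.46 for Mog under the label Sox9-LOF. The range was -0.69 to 1.88 for Mobp in HGG Sox9-GOF, and -0.50 to 0.53 for Cldn11 in EPN Sox9-GOF. Between the control tumours they were -0.60 to 1.96 for Mobp and -1.19 to 0.0541 for Cldn11. In the contrast they were -0.27 to 0.68 for Mag, -0.70 to 0.34 for Cnp, -1.07 to 0.81 for Opalin and -2.01 to 0.0591 for Mbp. The cause was not tested. Among all genes, DESeq2 called 1339, 2260 and 842 in the comparisons within a model, where limma called 0. With the spread of all 15 libraries limma called 1112, 2247 and 129, so the 0 depends on how the spread was estimated. The replicate block changed the calls between the control tumours from 2316 to 1142 genes and in the contrast from 920 to 367. It changed no call of a member other than Ugt8a in the contrast. The GC and length correction left 1866 genes called between the control tumours and 69 in the contrast. With the block added these were 961 and 0. Without 1 library the calls ran from 367 to 3632 and from 35 to 2095. The 6.07% of genes called in the contrast is therefore not stable. Same-numbered libraries correlated at -0.141 to 0.199 for the label Sox9-LOF, at -0.0996 to 0.297 in EPN and at -0.280 to 0.232 between the control tumours. HGG controls 2 and 3 correlated best with the same number under the label Sox9-LOF, and EPN control 3 did so in EPN. Between the control tumours HGG control 1 did so. These values do not settle whether libraries of these comparisons are paired by number. Counting error was largest for Opalin, at 4 reads in EPN Sox9-GOF 3.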
